A study of Mus musculus with 6 samples.

Results

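The 31 imprinted genes described here were chosen by name from the 41053 gene names in the count tables. They lie in 16 clusters or single loci on 10 chromosomes, and 13 of them are on chromosome 7. From textbook knowledge, 21 are expressed from the paternal allele, 7 from the maternal allele (H19, Igf2r, Meg3, Rian, Mirg, Phlda2 and Slc22a18), and for 3 (Ube3a, Grb10 and Gnas) the active allele depends on the tissue. RNA came from cultured adult mouse spermatogonial stem cells, the male germline stem cells, which had been electroporated with a plasmid carrying a GFP reporter. In 3 lines labelled Ephb2-KO the plasmid also carried an sgRNA against Ephb2, and in 3 lines labelled WT it did not; GFP-positive cells were sorted and subcloned in both groups. In each group replicates 1 and 2 were at passage 20 and replicate 3 was at passage 18. Each line is 1 library. Nothing in the labels ties lines of one number to a common parent culture or separates them, so p-values measure the spread between these lines only.

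Imprinted genes are transcribed mainly from the chromosome of one parent, because a control region in each cluster carries DNA methylation that was laid down in only one of the germlines. In the male germline the maternal marks are erased and paternal marks are set, so that both chromosomes of a spermatogonial stem cell are expected to carry a paternal-type imprint. Under such an imprint maternally expressed genes, among them the RNAs H19, Meg3 and Rian, are expected to be quiet. Paternally expressed genes such as Igf2, Peg3 and Snrpn can be active from both chromosomes. In somatic tissue many imprinted genes, H19 and Dlk1 among them, are active in fibroblast-like and other mesenchymal cells. The counts do not separate the alleles, so the classes are background and were not measured.

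Part of the sequence that imprint maintenance works on can be seen in promoter windows. ZFP57, a zinc-finger protein that binds methylated control regions, recognises TGCCGC, and the capitals below mark TGCCGC or its reverse complement GCGGCA in 300-base RefSeq windows (GRCm38.p6) that run from 250 bases before a gene's start to 50 bases after it. These 4 windows are shown because Meg3 and Dlk1 are the oppositely expressed partners of a cluster controlled by paternal methylation, the upstream RefSeq start of Zdbf2 has the most matches, and Mest starts in a control region methylated on the maternal allele. All are on the plus strand, 5′ to 3′: Meg3 at chr12:109540746-109541045, Dlk1 at chr12:109452573-109452872, Zdbf2 at chr1:63200108-63200407 and Mest at chr6:30737800-30738099.
Meg3: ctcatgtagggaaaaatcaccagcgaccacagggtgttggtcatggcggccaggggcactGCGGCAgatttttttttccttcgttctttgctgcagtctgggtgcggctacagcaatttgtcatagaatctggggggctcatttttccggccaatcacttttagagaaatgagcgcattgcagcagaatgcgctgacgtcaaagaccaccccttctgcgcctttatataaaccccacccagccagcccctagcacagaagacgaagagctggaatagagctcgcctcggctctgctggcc
Dlk1: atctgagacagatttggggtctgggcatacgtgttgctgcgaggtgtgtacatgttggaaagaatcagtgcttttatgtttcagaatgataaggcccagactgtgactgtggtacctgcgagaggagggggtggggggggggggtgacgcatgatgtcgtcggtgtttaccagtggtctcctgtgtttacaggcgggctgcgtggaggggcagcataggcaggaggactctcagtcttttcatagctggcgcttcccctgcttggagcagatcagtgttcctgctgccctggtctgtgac
Zdbf2: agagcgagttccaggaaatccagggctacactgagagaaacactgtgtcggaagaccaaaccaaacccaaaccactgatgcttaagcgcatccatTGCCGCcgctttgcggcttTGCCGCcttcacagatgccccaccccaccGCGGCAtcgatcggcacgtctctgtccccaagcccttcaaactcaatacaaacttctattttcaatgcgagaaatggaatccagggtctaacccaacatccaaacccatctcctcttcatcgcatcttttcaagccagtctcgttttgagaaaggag
Mest: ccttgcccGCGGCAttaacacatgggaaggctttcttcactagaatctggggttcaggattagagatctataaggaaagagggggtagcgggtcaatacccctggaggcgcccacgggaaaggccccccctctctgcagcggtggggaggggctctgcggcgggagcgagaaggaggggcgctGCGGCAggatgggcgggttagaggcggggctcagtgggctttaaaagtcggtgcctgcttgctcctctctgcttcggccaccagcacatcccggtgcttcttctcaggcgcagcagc
The Zdbf2 window held 3 matches, the Mest window 2, the Meg3 window 1 and the Dlk1 window 0. Windows were found for 26 of the 31 genes, 40 in all, because some genes have several starts; H19, Impact, Peg10, Rtl1 and Sgce were not matched. Of the 40 windows 9 (22.5%) held the motif on either strand, in 8 genes, against 11.6% of 32851 windows of all genes. Overlapping windows of Mest that hold the same 2 matches are counted separately. The median number of CpG dinucleotides was 13 in these windows and 7 in all windows. The motif itself holds a CpG, so the shares are not compared at a like CpG number. A match is a description of letters and not a binding site.

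Total counts were between 21772404 and 33140336 in Ephb2-KO libraries and between 24928648 and 34047758 in WT libraries. Levels are given as CPM, counts relative to the scaled library size, and 3 counts corresponded to 0.0803 to 0.147 CPM in a single library; this floor covers counting error only. Ephb2 itself did not follow the labels: it had 37.1, 16.5 and 13.4 CPM in libraries labelled Ephb2-KO 1, 2 and 3, against 21.3, 27.1 and 10.8 CPM in WT 1, 2 and 3. The ranges overlapped, with a log2 fold change of 0.18 (SE 0.50) in Ephb2-KO over WT. A short insertion or deletion can leave the RNA in place, so the counts do not check the edit, and the groups below are the libraries labelled Ephb2-KO and WT. The 20 germ cell markers were all above the floor, with sums of 2502 to 4735 CPM in Ephb2-KO and 2749 to 4622 CPM in WT libraries. The 25 fibroblast or stromal markers were also all above it, at 7385 to 30052 CPM in Ephb2-KO and 4961 to 25755 CPM in WT libraries. Of 7 Leydig cell markers 4, among them Cyp17a1 and Insl3, were at or below the floor.

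To compare levels between genes, CPM was divided by exon length in kilobases (RPKM). Averaged over the 6 libraries, the 31 genes ran from 0.0123 RPKM for Rtl1 to 128 RPKM for Phlda2, and 14 lay above the median of all tested genes, 6.22 RPKM. Phlda2, a growth-restraining pleckstrin-homology protein that is maternally expressed, was the highest at 82.0 to 173 RPKM over the libraries. Ndn, which encodes the growth suppressor necdin, followed with 62.4 RPKM, Mest, an α/β-hydrolase gene, with 41.0, Gnas, the stimulatory G-protein α subunit, with 28.5, and Dlk1, a membrane-bound Notch-pathway ligand, with 23.6 RPKM. The place of Dlk1 rests on passage 18, where it averaged 53.2 RPKM, against 8.77 RPKM at passage 20, the tenth highest of the 31 there. Over all 6 libraries the ranges of these neighbours in the order overlapped, so ranges alone do not make the order of adjacent genes firm. Within each passage Phlda2 lay above Ndn. The values were 92.5 to 101 against 79.8 to 83.3 RPKM at passage 18, and 82.0 to 173 against 33.3 to 64.1 RPKM at passage 20.

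The maternally expressed long noncoding RNAs of the Dlk1-Meg3 cluster were near the bottom of that order. Meg3 averaged 0.0784 RPKM and Mirg, the host transcript of a microRNA cluster, 0.0476 RPKM. Rian, which hosts small nucleolar RNAs, averaged 0.998 RPKM with a range of 0.0708 to 3.24 RPKM over the libraries. H19, the maternally expressed RNA of the Igf2 cluster, averaged 7.50 RPKM, against 2.06 RPKM for its paternally expressed neighbour Igf2. That H19 mean is carried by the passage 18 libraries, in which stromal markers were also high. H19 was at 12.1 and 17.5 RPKM there, against 3.21 to 4.44 RPKM at passage 20. Its passage 20 values lay below the median of all tested genes, which was taken over all 6 libraries. Igf2r, the receptor that clears IGF2, averaged 17.7 RPKM and Slc22a18, a transporter gene, 5.15 RPKM. The median was 5.15 RPKM over the 7 maternally expressed genes, 3.45 RPKM over the 21 paternally expressed genes and 21.2 RPKM over the 3 tissue-dependent genes. Levels ran from 0.0476 to 128 RPKM in the maternally expressed class and from 0.0123 to 62.4 RPKM in the paternally expressed class. Phlda2 and Igf2r, though maternally expressed, lay above the median of all tested genes and so were not quiet. The paternally expressed RNAs of their clusters, Kcnq1ot1 and Airn, were low, at 0.0196 and 0.474 RPKM. The reason was not tested.

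**Figure D1:**
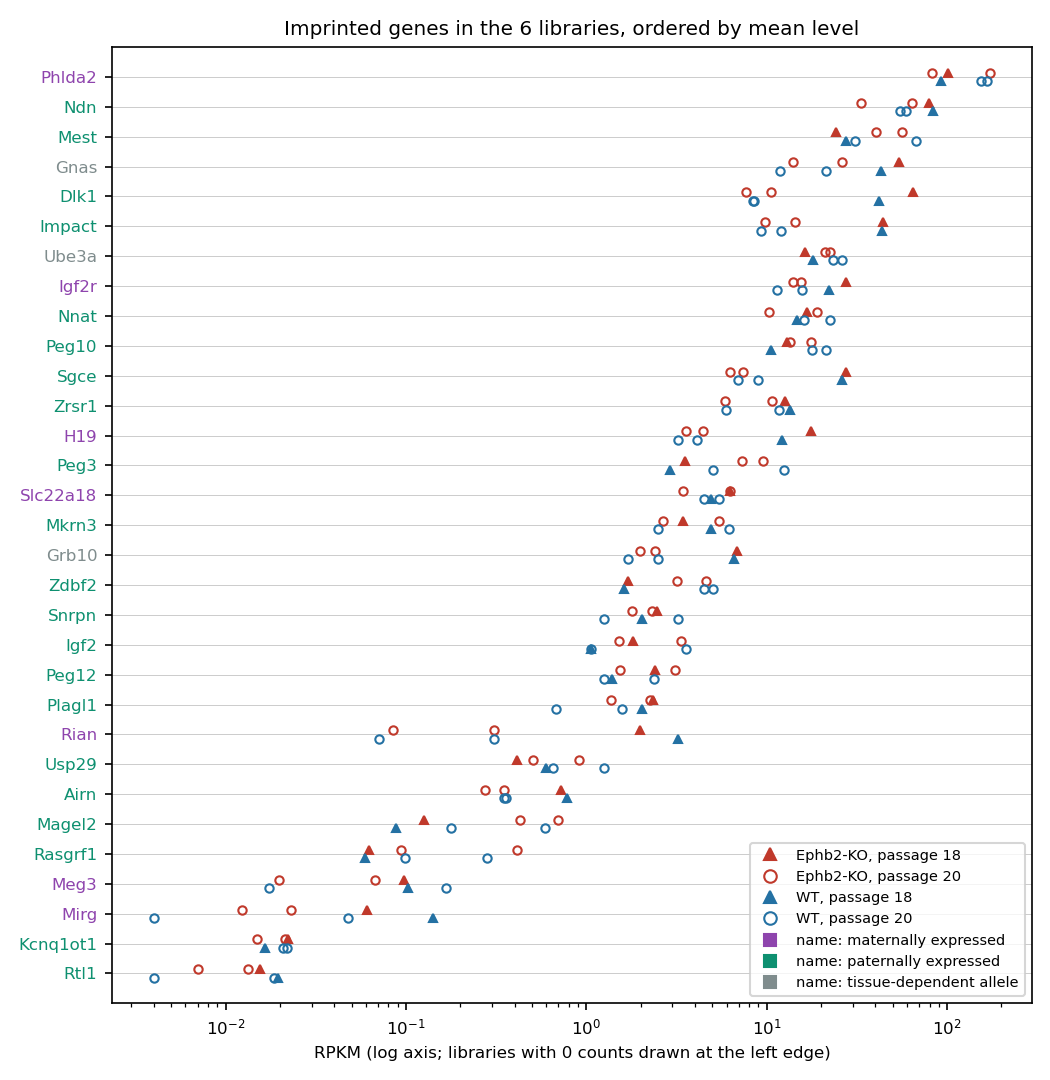
RPKM of each of the 31 imprinted genes (log axis) in Ephb2-KO libraries and WT libraries, with triangles for passage 18 and open circles for passage 20, ordered by mean level. Phlda2 is at the top with a mean of 128 RPKM and Rtl1 at the bottom with 0.0123 RPKM, and for Rian, Dlk1, H19, Sgce and Impact both triangles lie to the right of all 4 circles.

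Rtl1, a paternally expressed, retrotransposon-derived gene, had at most 3 counts in any library and the maternally expressed Mirg at most 25. Both were left out of the tests by the filter on low counts; 29 genes were tested. Kcnq1ot1, the antisense noncoding RNA of the Kcnq1 cluster, had 28 to 69 counts spread over an annotated length of 84395 bases, which gives 0.0196 RPKM. Rasgrf1, a Ras exchange factor gene, averaged 0.169 RPKM, Magel2 0.351, Airn, the antisense RNA of the Igf2r locus, 0.474 and Usp29 0.726 RPKM. Plagl1, a zinc-finger transcription factor gene, averaged 1.71, Peg12 2.02, Snrpn, which encodes a splicing protein, 2.18, Zdbf2 3.45, Mkrn3, a ubiquitin ligase gene, 4.19 and Peg3, a zinc-finger gene, 6.80 RPKM. Zrsr1, a splicing factor gene, averaged 10.0, Sgce, ε-sarcoglycan, 13.9, Peg10, a retrotransposon-derived gene, 15.6, Nnat, neuronatin, 16.5, and Impact, a translation regulator gene, 22.3 RPKM. Grb10, an adaptor that restrains insulin signalling, averaged 3.67 and Ube3a, a ubiquitin ligase gene, 21.2 RPKM. Reads in exons shared with another gene of the same strand were not counted: this touches 5.94% of the exon bases of Mirg, 3.54% of H19, 3.32% of Rian, 2.40% of Snrpn and 1.5% of Meg3.

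The widest differences among the 6 libraries followed passage. Passage 18 is replicate 3 of each group, so passage and replicate number cannot be told apart, and the 2 passage 18 libraries are compared with the 4 at passage 20 with genotype as a term. Deviations from group means correlated over genes at 0.596, 0.736 and 0.850 between same-numbered libraries 1, 2 and 3. Libraries of one number are thus not independent, and these p-values are too small. By edgeR's quasi-likelihood test with Benjamini-Hochberg adjustment over 15263 genes, 11 of the 29 tested imprinted genes (37.9%) differed at an adjusted p under 0.05, against 25.8% of all tested genes. Of these, 8 (27.6%) were higher at passage 18, against 15.4% of all genes, and 3 (10.3%) were lower, against 10.4%. The median log2 fold change was 0.07 over the imprinted genes and -0.06 over all genes, so the genes moved in both directions rather than together. In 11 imprinted genes both passage 18 libraries lay above all 4 others, against 26.9% of all genes, and in 7 they lay below, against 26.6%. The passage 18 libraries also held more stromal transcripts, at 25755 to 30052 CPM against 4961 to 8437 CPM at passage 20 for the summed stromal list, and fewer germ cell transcripts, at 2502 to 2749 CPM against 4133 to 4735 CPM. In such bulk samples fewer cells of a type and less RNA per cell cannot be told apart.

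Rian rose most. It had 28.5 CPM in Ephb2-KO and 46.6 CPM in WT at passage 18, against 4.43 and 1.22 CPM in Ephb2-KO and 4.42 and 1.02 CPM in WT at passage 20. The passage 18 values were all above the passage 20 values, a 13.1-fold difference (95% interval 4.76 to 36.0, adjusted p = 0.00665 by edgeR). The gene lies at chr12:109603940-109661716 (GRCm38). Meg3, which starts 62.9 kb before it on the same strand at chr12:109541001-109571726, did not pass: it had 1.77 CPM in Ephb2-KO and 1.86 CPM in WT at passage 18, against 1.21 and 0.360 CPM in Ephb2-KO and 3.00 and 0.313 CPM in WT at passage 20. The groups overlapped, since WT 1 was the highest library, and the log2 fold change was 0.65 (SE 0.85, adjusted p = 0.614 by edgeR). It was 1.70 without WT replicate 1 and 0.15 without Ephb2-KO replicate 3, and it passed in neither fit. With replicate number in place of passage Meg3 passed at 1.15 (SE 0.43, adjusted p = 0.0471). Mirg had 9 counts in Ephb2-KO and 25 in WT at passage 18, against 6 and 2 in Ephb2-KO and 13 and 0 in WT at passage 20, too few to test.

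Dlk1, the paternally expressed partner at chr12:109452823-109463336, rose as well. It had 365 CPM in Ephb2-KO and 238 CPM in WT at passage 18, against 43.5 and 59.6 CPM in Ephb2-KO and 47.6 and 47.8 CPM in WT at passage 20. The 4 passage 20 libraries lay close together and far below both passage 18 libraries, and the fold change was 5.97 (95% interval 4.45 to 8.0, adjusted p = 0.000256 by edgeR). Rtl1, also paternally expressed in this cluster, had 2 counts in Ephb2-KO and 3 in WT at passage 18, against 3 and 1 in Ephb2-KO and 0 and 3 in WT at passage 20. Rian and Dlk1 were thus higher in the same 2 libraries. Meg3 did not pass with passage as the term, and Mirg and Rtl1 had too few counts to test. Bulk counts that do not separate the alleles cannot show whether the classes of the cluster are opposed within a cell.

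At the Igf2 cluster H19 (chr7:142575529-142578143) had 41.6 CPM in Ephb2-KO and 28.8 CPM in WT at passage 18, against 8.43 and 10.5 CPM in Ephb2-KO and 7.61 and 9.80 CPM in WT at passage 20. The groups did not overlap, and H19 was 3.83-fold higher (95% interval 2.62 to 5.59, adjusted p = 0.00168 by edgeR). Igf2, the growth factor gene that starts 88.7 kb from H19, had 10.4 CPM in Ephb2-KO and 6.11 CPM in WT at passage 18, against 8.65 and 19.1 CPM in Ephb2-KO and 6.08 and 20.3 CPM in WT at passage 20. Its groups overlapped, replicate 2 was the highest library in both genotypes, and the log2 fold change of -0.75 (SE 0.55) did not pass. At the Igf2r locus, Igf2r (chr17:12682406-12769664) had 258 CPM in Ephb2-KO and 209 CPM in WT at passage 18, against 131 and 147 CPM in Ephb2-KO and 108 and 148 CPM in WT at passage 20. It was 1.74-fold higher with no overlap (adjusted p = 0.0136 by edgeR). Airn, its antisense RNA, had 2.60 CPM in Ephb2-KO and 2.81 CPM in WT at passage 18, against 0.987 and 1.26 CPM in Ephb2-KO and 1.29 and 1.25 CPM in WT at passage 20. Airn's groups were also apart, at a log2 fold change of 1.18 (SE 0.38, adjusted p = 0.0570), and it passed with replicate number in place of passage (adjusted p = 0.0154).

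Sgce and Peg10 are paternally expressed from a shared promoter region, in opposite directions, and their annotated 5′ ends are 102 bases apart. Sgce (chr6:4674350-4747204) had 84.6 CPM in Ephb2-KO and 80.9 CPM in WT at passage 18, against 19.3 and 22.9 CPM in Ephb2-KO and 27.5 and 21.4 CPM in WT at passage 20, a 3.64-fold rise (95% interval 2.73 to 4.86, adjusted p = 0.000688 by edgeR). Peg10 (chr6:4747306-4760517) had 86.7 CPM in Ephb2-KO and 70.2 CPM in WT at passage 18, against 90.1 and 117 CPM in Ephb2-KO and 119 and 141 CPM in WT at passage 20. Peg10 thus lay on the other side, below all passage 20 libraries, at a log2 fold change of -0.56 (SE 0.21, adjusted p = 0.0835 by edgeR). In Ephb2-KO its replicate 3 was close to replicate 1. Peg10 passed with replicate number in place of passage (adjusted p = 0.0130), without a filter on low counts (0.0226) and without Ephb2-KO replicate 1 (0.0385). It did not pass in the other settings, and leaving out 1 library gave log2 fold changes of -0.89 to -0.25.

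**Figure D2:**
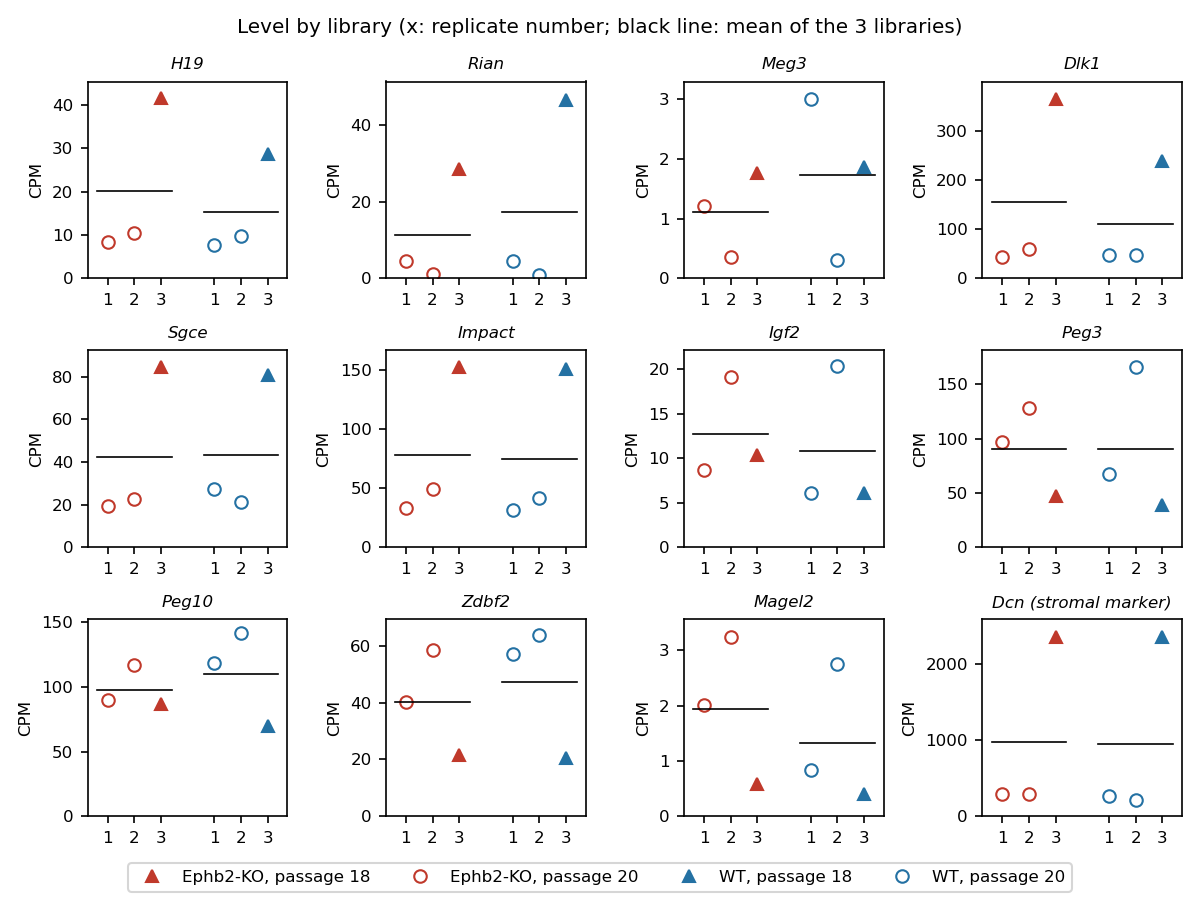
CPM of 11 imprinted genes and of the stromal marker Dcn in each library, with one panel per gene, Ephb2-KO left of WT, replicate number on the x axis, triangles for passage 18 and circles for passage 20, and a black line at the mean of 3 libraries. H19, Rian, Dlk1, Sgce and Impact stand high in replicate 3 of both groups as Dcn does, whereas Peg3, Zdbf2 and Magel2 are lowest there.

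A further 3 genes were higher at passage 18. Impact had 152 CPM in Ephb2-KO and 150.4 CPM in WT at passage 18, against 33.7 and 49.1 CPM in Ephb2-KO and 31.8 and 41.5 CPM in WT at passage 20, a 3.89-fold difference (95% interval 2.85 to 5.31, adjusted p = 0.000745 by edgeR). Grb10 (chr11:11930508-12038683) had 62.1 CPM in Ephb2-KO and 60.2 CPM in WT at passage 18, against 21.9 and 18.0 CPM in Ephb2-KO and 22.7 and 15.4 CPM in WT at passage 20, a 3.13-fold difference (2.25 to 4.36, adjusted p = 0.00189 by edgeR). Gnas (chr2:174284320-174346744) had 609 CPM in Ephb2-KO and 484 CPM in WT at passage 18, against 156 and 293 CPM in Ephb2-KO and 133 and 238 CPM in WT at passage 20, a 2.66-fold difference (1.65 to 4.30, adjusted p = 0.0140 by edgeR). No group overlapped in these genes, and in Gnas replicate 2 also stood above replicate 1 in both genotypes. The gene-level Gnas count sums its several imprinted and non-imprinted transcripts. Of the Gnas exon bases 22.0% face exons of Gm20721 and Nespas on the opposite strand.

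The 3 genes that fell at passage 18 are all paternally expressed. Zdbf2 (chr1:63273265-63314576) had 21.7 CPM in Ephb2-KO and 20.4 CPM in WT at passage 18, against 40.4 and 58.4 CPM in Ephb2-KO and 57.1 and 63.7 CPM in WT at passage 20, a fold change of 0.386 (95% interval 0.270 to 0.552, adjusted p = 0.00541 by edgeR). Peg3 (chr7:6703892-6730421) had 47.2 CPM in Ephb2-KO and 38.8 CPM in WT at passage 18, against 96.6 and 128 CPM in Ephb2-KO and 67.1 and 166 CPM in WT at passage 20, a fold change of 0.375 (0.210 to 0.671, adjusted p = 0.0272 by edgeR). Magel2 (chr7:62376979-62381640), a ubiquitin ligase regulator gene, had 0.589 CPM in Ephb2-KO and 0.413 CPM in WT at passage 18, against 2.0 and 3.24 CPM in Ephb2-KO and 0.830 and 2.74 CPM in WT at passage 20. The passage 18 libraries were the lowest for all of them, but the Magel2 values rest on 12 and 10 counts and its adjusted p was 0.0496. Magel2 no longer passed without Ephb2-KO replicate 1, 2 or 3 or without WT replicate 2 or 3, with adjusted p between 0.0525 and 0.332, nor with RLE size factors (0.0531). Peg3 no longer passed without Ephb2-KO replicate 2 (0.0637).

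Each call rests on only 2 passage 18 libraries. Leaving out replicate 3 of a genotype leaves 1 passage 18 library, which the fit assumes to vary like the others, so effect sizes are given here. Over the fits without 1 library, the log2 fold change ran from 2.32 to 2.83 for Dlk1 and 1.85 to 2.09 for Impact. For Sgce it ran from 1.73 to 2.01, and for Peg3 from -1.61 to -1.06. Each of the 11 genes kept its direction in every such fit. Within a genotype, replicate 3 can be set against the mean of replicates 1 and 2. The log2 ratio was 3.34 in Ephb2-KO and 4.10 in WT for Rian, 2.82 and 2.31 for Dlk1, 2.13 and 1.73 for H19, and -1.25 and -1.59 for Peg3, in the same order of genotypes. Over the 29 tested genes 13 were above 0 in both genotypes, 10 below 0 in both, and 6 differed in sign. Whether the passage difference depends on genotype could hardly be tested, since each genotype has 1 passage 18 library: the interaction passed for 0 of 15263 genes by edgeR, and among the imprinted genes 0 reached an unadjusted p under 0.05.

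**Figure D3:**
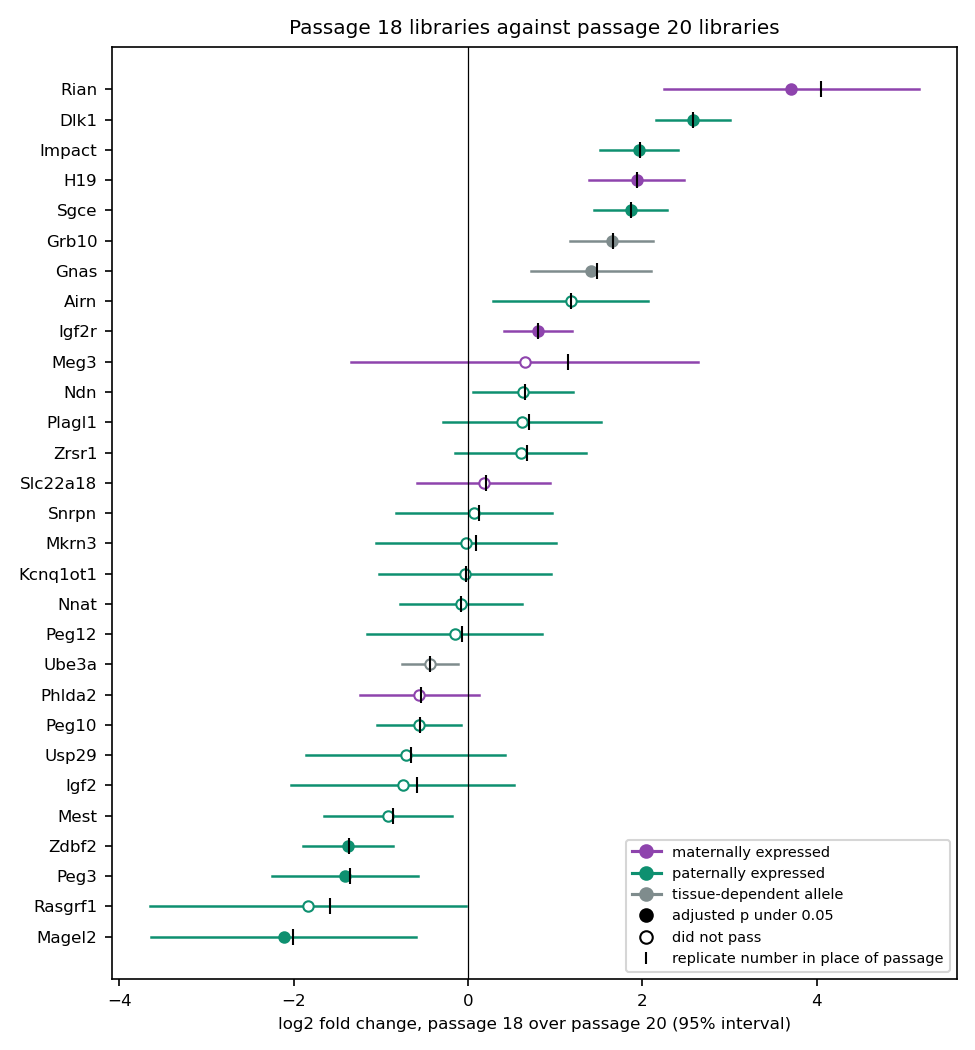
Log2 fold change at passage 18 over passage 20 with its 95% interval for the 29 tested imprinted genes, coloured by expressed allele; filled points passed an adjusted p under 0.05, and black ticks give the value with replicate number in place of passage. Rian is highest at 3.71 and Magel2 lowest at -2.12, and the 3 maternally expressed genes that passed all lie on the right.

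With replicate number in place of passage, which removes the difference between replicates 1 and 2 from the spread, 20 of 29 imprinted genes (69.0%) passed, against 48.0% of all genes. These p-values rest on how the genotypes differ within a number and not on the spread between numbers. Here 13 were higher in replicate 3 (44.8%, against 25.0%) and 7 lower (24.1%, against 23.0%). The added genes were Airn, Meg3, Ndn, Plagl1 and Zrsr1 among the higher, and Mest, Peg10, Rasgrf1 and Ube3a among the lower. Ndn had 132 CPM in Ephb2-KO and 138 CPM in WT at passage 18, against 55.0 and 106 CPM in Ephb2-KO and 90.3 and 97.7 CPM in WT at passage 20 (log2 0.66, SE 0.16). Zrsr1 had 41.5 CPM in Ephb2-KO and 44.1 CPM in WT at passage 18, against 35.1 and 19.3 CPM in Ephb2-KO and 38.2 and 19.6 CPM in WT at passage 20 (log2 0.68, SE 0.13). In both genes the passage 18 libraries were the highest, and in Zrsr1 replicate 2 was low in both genotypes. Plagl1 had 17.1 CPM in Ephb2-KO and 14.9 CPM in WT at passage 18, against 10.0 and 16.4 CPM in Ephb2-KO and 4.95 and 11.6 CPM in WT at passage 20 (log2 0.70, SE 0.21), and its groups overlapped.

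Mest had 94.8 CPM in Ephb2-KO and 108 CPM in WT at passage 18, against 158 and 221 CPM in Ephb2-KO and 122 and 265 CPM in WT at passage 20 (log2 -0.86, SE 0.15). Ube3a had 83.5 CPM in Ephb2-KO and 91.8 CPM in WT at passage 18, against 107 and 115 CPM in Ephb2-KO and 119 and 133 CPM in WT at passage 20 (log2 -0.43, SE 0.12). Rasgrf1 had 0.688 CPM in Ephb2-KO and 0.660 CPM in WT at passage 18, against 1.04 and 4.59 CPM in Ephb2-KO and 1.10 and 3.13 CPM in WT at passage 20 (log2 -1.58, SE 0.40). All of these were lowest at passage 18, and Mest and Rasgrf1 were highest in replicate 2 of both genotypes.

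The other 9 tested genes passed in neither fit: Igf2, Usp29, Snrpn, Mkrn3, Peg12, Kcnq1ot1, Phlda2, Slc22a18 and Nnat. Phlda2 had 76.6 CPM in Ephb2-KO and 70.0 CPM in WT at passage 18, against 62.1 and 131 CPM in Ephb2-KO and 126 and 116 CPM in WT at passage 20. Slc22a18 had 10.8 CPM in Ephb2-KO and 8.46 CPM in WT at passage 18, against 5.92 and 10.8 CPM in Ephb2-KO and 7.77 and 9.37 CPM in WT at passage 20. The passages overlapped in both genes. By class, 3 of the 6 tested maternally expressed genes rose and 0 fell, and 2 of 3 tissue-dependent genes rose, against 15.4% of all genes higher and 10.4% lower. Of 20 paternally expressed genes 3 (15.0%) rose and 3 (15.0%) fell, near the shares of all genes. At the Prader-Willi and Angelman region of chromosome 7, Magel2 fell, while Ndn (0.63), Snrpn (0.07), Mkrn3 (-0.02), Peg12 (-0.15) and Ube3a (-0.43) did not pass on the log2 scale with passage as the term. With replicate number in its place, Ndn rose and Ube3a fell, as given above.

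Stromal transcripts moved with the same libraries. Dcn, which encodes the fibroblast proteoglycan decorin, had 2348 CPM in Ephb2-KO and 2344 CPM in WT at passage 18, against 295 and 289.5 CPM in Ephb2-KO and 267 and 213 CPM in WT at passage 20, at a log2 fold change of 3.15 (SE 0.17). Of the 25 stromal markers 20 rose and 0 fell, with a median log2 fold change of 2.0. Dcn, Pdgfra, a mesenchymal growth factor receptor gene (2.34), and the collagen genes Col6a1 (2.61) and Col6a2 (2.60) had the smallest p. Of the 20 germ cell markers 13 fell and 0 rose, with a median of -0.78, among them Ret, the GDNF receptor kinase gene (-1.20), Rhox13 (-0.92), Tex101 (-0.77) and Uchl1 (-0.74). Rian, Dlk1, Impact, H19, Sgce, Grb10, Gnas and Igf2r, at log2 fold changes of 0.80 to 3.71, thus moved in the direction of the stromal list. Zdbf2, Peg3 and Magel2 moved in the direction of the germ cell list. The stromal list ran from -0.59 to 4.33 and the germ cell list from -2.03 to -0.12. Of all genes 15.4% also rose and 10.4% also fell, so direction and size do not tie a gene to either list. The part of stromal transcripts in these results was not tested.

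Within genotypes the same arrangement held. Replicate 3 stood above the mean of replicates 1 and 2 in both genotypes for 22 of 25 stromal markers and below it in both for 18 of 20 germ cell markers. The imprinted genes were split between these patterns. The order of the 3 replicate numbers was the same in Ephb2-KO and WT for 22 of the 29 genes. It was also the same for 18 of 25 stromal and 12 of 20 germ cell markers, so this is not particular to imprinted genes. Among the imprinted genes the order was replicate 3, then 2, then 1 for 7 genes, and replicate 3, then 1, then 2 for 3 genes. In 8 imprinted genes it was replicate 2, then 1, then 3. Markers of other somatic cells were low: the summed Sertoli list was 58.3 to 71.2 CPM at passage 18, against 77.5 to 97.0 CPM at passage 20, and of its 7 tested genes only Wt1 passed, falling by 1.0 (adjusted p = 0.00973). The endothelial list summed to 6.68 to 9.04 CPM at passage 18, against 7.13 to 15.6 CPM at passage 20, with 1 of 4 tested genes, Emcn, higher (1.84). The macrophage list summed to 20.7 to 22.3 CPM at passage 18, against 20.4 to 30.0 CPM at passage 20, with 1 of 4, Lyz2, higher (2.42).

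**Figure D4:**
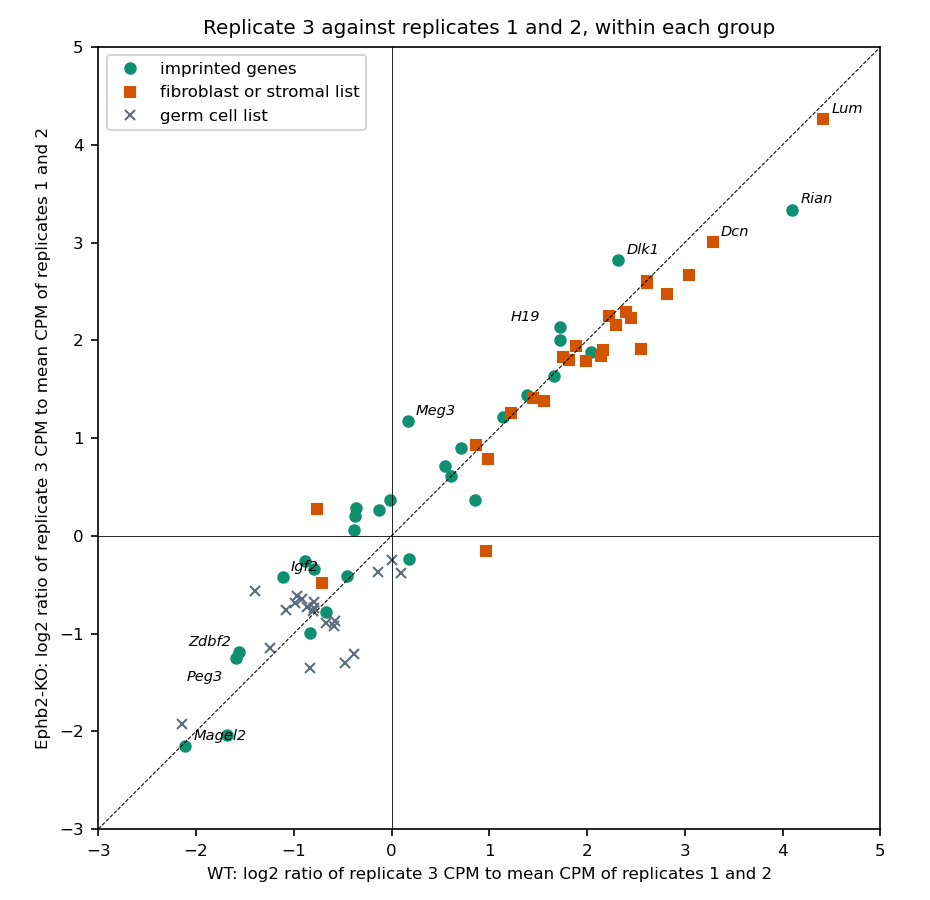
Log2 ratio of replicate 3 CPM to the mean CPM of replicates 1 and 2 in Ephb2-KO (y axis) and WT (x axis) for 29 imprinted genes, 25 stromal markers and 20 germ cell markers; the dashed line marks equal ratios. Rian, Dlk1 and H19 lie among the stromal markers, Peg3, Zdbf2 and Magel2 lie at the lower left with the germ cell markers, and Dcn is at 3.01 in Ephb2-KO and 3.29 in WT.

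Between the genotypes, 0 of the 29 imprinted genes passed in the fit without a replicate term, where 0% of all genes passed. In that fit 0 imprinted genes had an unadjusted p under 0.05, against 32 of all 15263 genes. Because lines of the same number deviated together, the fit with replicate number as a block is the sharper one. There again 0 of 29 genes passed, against 0.0262% of all genes, and the smallest adjusted p was 0.741. An unadjusted p under 0.05 was reached by 2 of the 29, against 987 of all 15263 genes. DESeq2 also called 0 of them. The median log2 fold change was -0.02 over the imprinted genes in both fits and 0.01 or 0.02 over all genes, without and with the block. In no imprinted gene were the ranges of the groups apart, against 2.39% of all tested genes.

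The imprinted genes with an unadjusted p under 0.05 with the block were Plagl1 and Gnas. Plagl1 (chr10:13090691-13131694) had 10.0, 16.4 and 17.1 CPM in Ephb2-KO 1, 2 and 3, against 4.95, 11.6 and 14.9 CPM in WT 1, 2 and 3. It was higher in 3 of 3 pairs, with the widest gap in pair 1, at a log2 fold change of 0.57 (SE 0.20, unadjusted p = 0.0160 and adjusted p = 0.741 by edgeR). Gnas had 156, 293 and 609 CPM in Ephb2-KO, against 133, 238 and 484 CPM in WT. It was also higher in 3 of 3 pairs, at 0.29 (SE 0.11, unadjusted p = 0.0247 and adjusted p = 0.741 by edgeR). The other genes that were higher in 3 of 3 pairs were H19, Magel2, Peg12 and Impact, giving 6 of 29 against 15.6% of all genes. Usp29, Ube3a and Zrsr1 were lower in 3 of 3 pairs, giving 3 of 29 against 12.3% of all genes.

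For the maternally expressed RNAs the blocked log2 fold changes and their 95% intervals were 0.27 (-0.11 to 0.64) for H19, -0.52 (-1.45 to 0.42) for Meg3 and -0.25 (-0.73 to 0.24) for Rian. In CPM, H19 averaged 20.2 ± 18.6 in Ephb2-KO and 15.4 ± 11.7 in WT, Meg3 1.11 ± 0.709 in Ephb2-KO and 1.72 ± 1.35 in WT, and Rian 11.4 ± 14.9 in Ephb2-KO and 17.3 ± 25.4 in WT (SD, n = 3 each). The SDs are large against the means, since replicate 3 stands apart in H19 and Rian and replicate 2 is low in Meg3. Among paternally expressed genes the blocked intervals ran from -0.33 to 0.29 for Mest and from -0.22 to 0.50 for Peg3, and were wide for low genes, from -0.15 to 1.51 for Magel2. Dlk1 was at 0.27 (-0.05 to 0.59) and Igf2 at 0.38 (-0.07 to 0.84). Of the 25 stromal markers 16 were higher in Ephb2-KO in 3 of 3 pairs, against 15.6% of all genes. With the block 0 stromal markers passed by edgeR, but 15 had an unadjusted p under 0.05, against 987 of all 15263 genes. The summed level of the stromal markers was 7385, 8437 and 30052 CPM in Ephb2-KO against 4961, 6709 and 25755 CPM in WT. Mitochondrially encoded transcripts summed to 14231, 20161 and 9649 CPM in Ephb2-KO, against 7743, 14338 and 7554 CPM in WT. The part of either in these values was not tested.

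**Figure D5:**
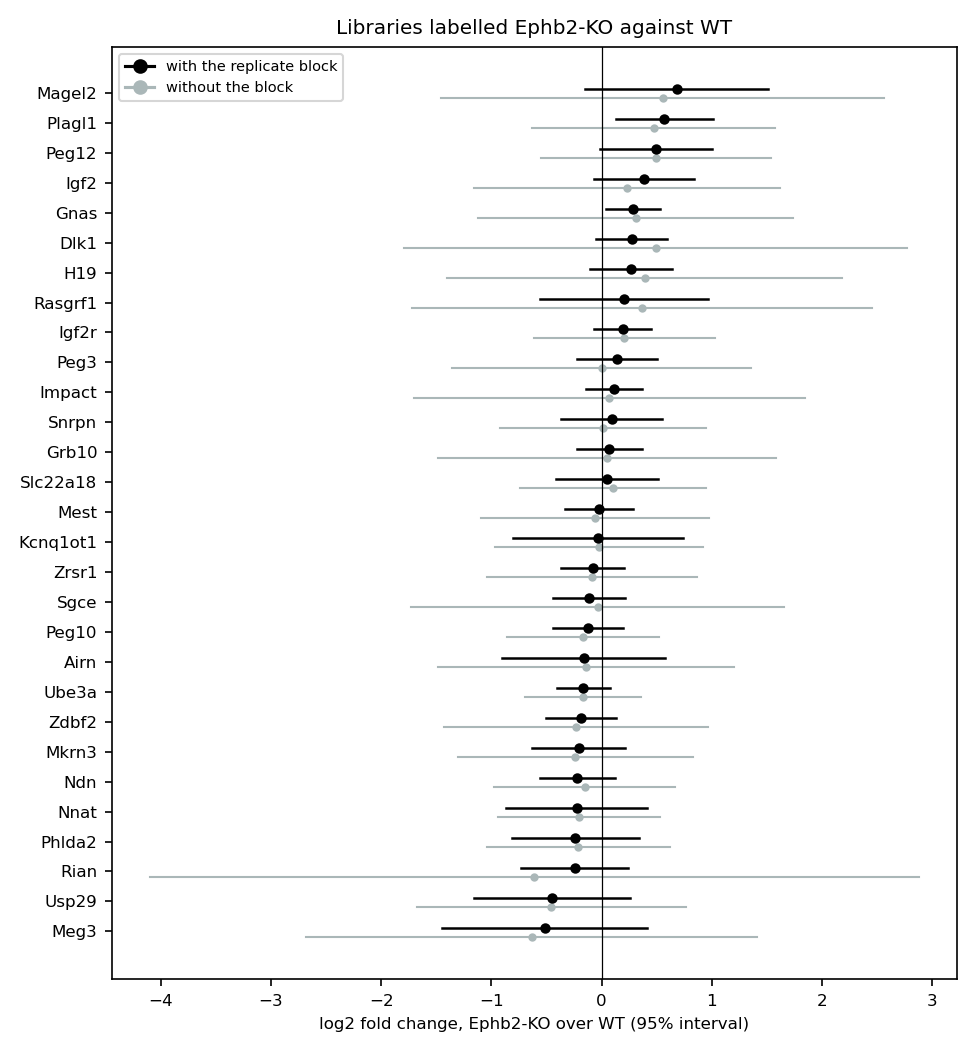
Log2 fold change in Ephb2-KO over WT with its 95% interval for the 29 tested imprinted genes, with replicate number as a block (black) and without it (grey). With the block Magel2 is highest at 0.68 and Meg3 lowest at -0.52, the intervals are narrower than without it, and those of Plagl1 and Gnas lie above 0 before adjustment over all genes.

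Genes that set, keep or read imprints were followed as a list of 26, of which 24 were tested. At passage 18 10 of them (41.7%) fell, against 10.4% of all genes, and 0 rose, against 15.4%. The median log2 fold change was -0.54, against -0.06 over all genes. The maintenance methyltransferase gene Dnmt1 was at -1.01 (SE 0.21, adjusted p = 0.0132), the de novo methyltransferase genes Dnmt3a at -0.76 (SE 0.17) and Dnmt3b at -1.27 (SE 0.28), and Uhrf1, which guides DNMT1 to replicated DNA, at -0.97 (SE 0.22). They fell in the libraries in which germ cell markers fell, and the part of cell makeup was not tested. Between genotypes 0 of the 24 passed by edgeR with or without the block. With it 2 of the 24 had an unadjusted p under 0.05, against 987 of all 15263 genes. The smallest p was that of Zfp42, a zinc-finger gene of pluripotent cells, with 0 counts in all 3 Ephb2-KO libraries against 107, 19 and 13 counts in WT 1, 2 and 3. Set against a floor of 3 counts per library, it was at least 11.3-fold lower in Ephb2-KO, or at least 5.24-fold lower without WT replicate 1, at an adjusted p of 0.0555 with the block and of 1.0 without. Arid4b had the next smallest p with the block, at -0.45 (SE 0.14) and an adjusted p of 0.741.

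A list of 53 other imprinted genes and their neighbours had 37 tested. At passage 18, 8 (21.6%) rose and 5 (13.5%) fell, against 15.4% and 10.4% of all genes, with a median log2 fold change of -0.12 against -0.06 over all genes. The genes with the smallest p were Cd81, a tetraspanin gene beside the Kcnq1 cluster (1.95, SE 0.17), Adam23, near Zdbf2 (1.48, SE 0.16), Pon3, near Peg10 (2.37, SE 0.27), and Osbpl5, beside Phlda2 (1.81, SE 0.21), all higher. Adam23 and Zdbf2 thus differed in direction, as did Pon3 and Peg10 in sign. Between genotypes 0 of 37 passed by edgeR with or without the block. With it 5 of the 37 had an unadjusted p under 0.05, against 987 of all 15263 genes. Ppp1r9a (-0.63, SE 0.36) and Ago2 (0.32, SE 0.23) had the smallest p without the block.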

How the data were processed

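The deposited files hold raw counts of reads per gene and each gene's exon length. The authors made them with featureCounts 1.4.6-p4 (strand setting 2, features summed by gene name, GENCODE vM3 annotation), per the file headers. Reads in overlapping exons of the same strand or mapping to several places were not counted by default, so genes with close copies are uncertain. STAR, FastQC and the build GRCm38.p3 are named in the submitters' processing notes, with versions of both tools not given in the sources used here. No row lacked a gene name.

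Counts were tested in R 4.3.3 with edgeR 4.0.16 (filterByExpr, TMM, robust glmQLFit, glmQLFTest, Benjamini-Hochberg over 15263 genes, threshold 0.05); DESeq2 1.42.0, other scaling and filters, and leaving out each library were alternatives. Standard errors are the log2 fold change over the square root of F. CPM uses TMM-scaled library sizes; RPKM is CPM per kilobase of exon. Figures used matplotlib 3.10.9.

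Deviations from group means correlated over genes at 0.596, 0.736 and 0.850 between same-numbered libraries 1, 2 and 3, and at most 0.0790 between other numbers. Deviations from a group mean sum to 0, which lowers the values between other numbers, and both libraries of number 3 are also at passage 18. The numbers, which come from the sample titles, were used as pairs in the block. Whether they mark shared cultures is not known.

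The members and lists were chosen with earlier results of these data known. The genes given in full are Ephb2, Dcn, members past the threshold in a comparison with or without the block, maternally expressed members above 3 counts, Igf2 and Dlk1; other lists give up to 4 genes past the threshold by smallest p, otherwise 2. Exons and starts come from the files, promoter sequences from RefSeq (GRCm38.p6).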

Additional observations from a re-analysis of the deposited data

How the results depend on the processing

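No imprinted gene was called between genotypes under any alternative run: the replicate block, DESeq2, RLE size factors, no filter, a filter of 5 CPM in 3 libraries, and each library or pair left out. Between passages, 11 genes passed, 8 higher and 3 lower. The replicate block, with replicate number in place of passage, gave 20 (13 higher, 7 lower), no filter 17 (7 lower) and DESeq2 5 lower. Leaving out 1 library gave 3 to 12 in all, 3 to 9 higher and 0 to 4 lower, with a median log2 fold change of the members of 0.069 to 0.33, against 0.07 with all libraries. Calls over all genes moved too. Between passages 3935 of 15263 genes passed (1588 lower), against 7323 (3505 lower) with the block and 2345 lower with DESeq2. Without a filter 5264 of 24749 genes passed (2430 lower). Leaving out 1 passage 20 library gave 3168 to 4187 genes. The counts of imprinted genes are thus to be read against these. The block changed no other call of an imprinted gene. Directions turned only in genes that passed in no edgeR fit of that comparison. For Ephb2-KO over WT these were Peg3, at 0.0070 without a filter and 0.14 with the replicate block, and Snrpn, at -0.0021 with the stricter filter; for passage 18 over passage 20, Mkrn3 was at 0.096 with the block. Leaving out 1 library turned others. For Ephb2-KO over WT the log2 fold changes then ran from -0.66 to 0.34 for Airn, -1.11 to 1.71 for Dlk1, -0.34 to 0.93 for Gnas, -0.72 to 0.84 for Grb10, -0.70 to 1.22 for H19, -0.19 to 1.06 for Igf2, -0.16 to 0.49 for Igf2r, -0.85 to 1.10 for Impact, -0.13 to 0.13 for Kcnq1ot1, -0.020 to 1.63 for Magel2, -1.13 to 0.039 for Meg3, -0.38 to 0.46 for Mest, -0.57 to 0.050 for Mkrn3, -0.43 to 0.13 for Ndn, -0.39 to 0.012 for Nnat, -0.41 to 0.053 for Peg10, -0.36 to 0.77 for Peg3, -0.90 to 1.25 for Rasgrf1, -2.61 to 2.06 for Rian, -1.03 to 0.79 for Sgce, -0.035 to 0.34 for Slc22a18, -0.26 to 0.41 for Snrpn, -0.60 to 0.069 for Zdbf2, -0.36 to 0.17 for Zrsr1. For passage 18 over passage 20 they ran from -0.36 to 0.28 for Kcnq1ot1, -0.28 to 0.29 for Mkrn3, -0.37 to 0.21 for Nnat, -0.38 to 0.094 for Peg12, -0.024 to 0.37 for Slc22a18, -0.13 to 0.44 for Snrpn. The cause was not tested. Depth limits Mirg, Rtl1, Meg3, Airn, Magel2, Kcnq1ot1, Rasgrf1 and Usp29, which had at most 112 counts in any library.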

Other observations

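Replicate 2 was the highest library in both genotypes for Igf2, Peg3, Usp29, Peg10, Magel2, Peg12, Ube3a, Mest, Slc22a18, Zdbf2 and Rasgrf1. Replicate 3 was the highest in both for H19, Igf2r, Airn, Sgce, Rian, Dlk1, Ndn, Plagl1, Grb10, Impact, Gnas and Zrsr1, and replicate 1 for Mkrn3. This grouping was noticed in the values and was not tested.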
